A study of Mus musculus with 12 samples.

Results

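The homologous recombination and Fanconi genes described here are a list of 37 genes, chosen by name with earlier results of these data known. All 37 were found among the 55401 genes listed in the count tables. RNA-seq counts came from 12 libraries in 4 groups, and each library pooled 10 mouse embryos at the 8-cell stage. Zygotes from superovulated B6129F1 females of 3 to 5 weeks, mated with B6CBAF1 males, were injected 8 to 9 h post fertilization with siRNA, a short double-stranded RNA that directs the cell to degrade a matching mRNA. The control group (n = 2) received 15 µM control siRNA, Nr5a2 KD (n = 3) 5 µM siRNA against Nr5a2, Klf5 KD (n = 3) 10 µM siRNA against Klf5, and Nr5a2 Klf5 dKD (here dKD, n = 4) siRNAs against both. All groups were co-injected with H2B-EGFP as a marker of injection, and the concentrations combined for the dKD are not given in the sources used here. The amount of siRNA therefore differed between groups, and its part in a difference cannot be told apart from that of the targeted gene. NR5A2 is an orphan nuclear receptor and KLF5 a zinc finger transcription factor, and both act in the early embryo. The comparisons address whether a loss of DNA repair transcripts was particular to the double knockdown.

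Homologous recombination repairs a broken chromosome by copying an intact sister. The broken ends are first trimmed to single strands, these strands then invade the sister with the help of BRCA2 and its partners, and the joined molecules are finally taken apart by helicases and nucleases. The Fanconi pathway deals with crosslinks between the strands: a core complex attaches ubiquitin to FANCD2 and FANCI, which recruit nucleases and hand the resulting break to recombination. Cleavage-stage embryos divide without growth, first on stored and then on newly made transcripts, and each division needs a complete copy of the genome.

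Of the 37 members, 34 passed the filter on low counts in every comparison. Fancg of the Fanconi core, the nuclease gene Fan1 and the strand-exchange gene Xrcc3 did not, with at most 8, 13 and 16 counts in a library. Levels are given as CPM, the counts of a gene relative to the total of its library, scaled between libraries with the trimmed mean of M values (TMM) of edgeR, and calling a gene required a change of 2-fold or more and an adjusted p under 0.05 from edgeR's quasi-likelihood test, with Benjamini-Hochberg adjustment over the whole table.

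The libraries held 6676683 to 12560926 counts on genes. Nr5a2 mRNA was at 14.7% of control in Nr5a2 KD and at 13.7% in dKD, and Klf5 mRNA was at 24.5% in Klf5 KD and at 12.3% in dKD. Klf5 mRNA was also at 30.6% of control in Nr5a2 KD, so that group had less of both mRNAs. With p = 0.1 for 3 against 2 libraries and p = 0.0667 for 4 against 2, two-sided exact permutation tests reached the smallest p these group sizes allow for each of these values. The share of counts on mitochondrially encoded genes was 12.9 and 13.2% in control and ranged from 4.41 to 12.8% in the 10 knockdown libraries. Of 10 genes of the 8-cell embryo, Sox2 and Cdx2 had at most 7 counts in a library, while the summed level of the list was 14800 to 29800 CPM in the 12 libraries, nearly all of it Dppa3. Of 12 genes of cumulus and granulosa cells, Ptx3 and Inhba were at 0 in every library, and the sum of the list was 3.94 and 4.16 CPM in the control libraries, between 1.88 and 14.2 for Nr5a2 KD, between 0.354 and 3.23 for Klf5 KD and between 2.83 and 6.20 for dKD. In the file headers the libraries of replicate 1 of the 3 knockdown groups are numbered 231 to 233 and the other 9, both control libraries included, 235 to 243, and no source used here says whether these numbers mark a batch. In pooled embryos, fewer cells that use a gene and less of its RNA per cell cannot be told apart.

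The promoters of 4 members called in both comparisons that lowered Nr5a2 are shown, as RefSeq gives them on GRCm38.p6, because these genes were called together in both and NR5A2 and KLF5 each bind known DNA letters. RefSeq's table held 30 of the 37 members and lacked Fancd2, Nbn, Rad50, Rad51d, Rad54b, Rbbp8 and Xrcc2. Each run holds the 250 bases before a transcription start that RefSeq lists, written 5′ to 3′ on the strand of the gene. For Rad51c and Rad54l RefSeq lists 2 starts, and the one nearest the start of the gene model used for counting was taken. For Fance the start is 11 bases inside that gene model. Capitals mark matches on either strand to the NR5A half-site CAAGGNCA or to the KLF box GGGNGNGG.
Fance (chr17:28313280-28313529, plus strand): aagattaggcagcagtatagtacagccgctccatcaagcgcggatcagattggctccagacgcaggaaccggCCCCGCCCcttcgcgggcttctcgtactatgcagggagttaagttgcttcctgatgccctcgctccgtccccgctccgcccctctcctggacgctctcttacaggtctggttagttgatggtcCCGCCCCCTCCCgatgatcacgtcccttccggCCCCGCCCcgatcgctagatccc
Rad51c (chr11:87404955-87405204, minus strand): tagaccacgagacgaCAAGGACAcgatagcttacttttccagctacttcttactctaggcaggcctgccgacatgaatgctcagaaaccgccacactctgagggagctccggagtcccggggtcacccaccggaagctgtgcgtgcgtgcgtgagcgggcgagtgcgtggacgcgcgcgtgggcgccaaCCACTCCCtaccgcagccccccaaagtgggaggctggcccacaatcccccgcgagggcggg
Atr (chr9:95857347-95857596, plus strand): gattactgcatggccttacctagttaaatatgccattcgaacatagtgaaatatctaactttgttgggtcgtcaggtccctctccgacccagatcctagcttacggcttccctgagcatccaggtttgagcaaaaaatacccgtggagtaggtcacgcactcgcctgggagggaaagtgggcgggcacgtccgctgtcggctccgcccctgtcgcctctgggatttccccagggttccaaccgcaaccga
Rad54l (chr4:116123691-116123940, minus strand): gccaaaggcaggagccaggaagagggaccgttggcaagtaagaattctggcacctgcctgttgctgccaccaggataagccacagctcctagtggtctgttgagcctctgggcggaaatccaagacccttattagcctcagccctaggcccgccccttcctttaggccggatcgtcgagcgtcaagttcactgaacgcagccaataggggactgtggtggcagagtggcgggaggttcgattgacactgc
The window of Rad51c held 1 match to the NR5A half-site, on the strand of the gene and from base 235 to base 228 before the start, and 1 match to the KLF box. Fance held 4 matches to the KLF box, all on the opposite strand, a pair of which overlap. Neither set of letters occurred in the windows of Atr and Rad54l. Among all 32851 promoters of the table, 5.53% held the NR5A half-site and 45.9% the KLF box within 250 bases. Among the 33 promoters that the table lists for the 30 members, 2 (of Fancl and Rad51c) held the former and 16, of 15 members, the latter. These matches describe the letters only and were not tested for binding.

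Levels between genes were compared in CPM per kb of exon, a scale that removes gene length. In control, Aunip and Fancm stood highest at 12.5 CPM per kb each, followed by Eme1 at 11.7, Fancl at 8.92 and Rad51ap1 at 8.43. AUNIP binds DNA ends and promotes their trimming, FANCM is the translocase that anchors the Fanconi core complex on DNA, and EME1 is the partner of the nuclease MUS81. The place of Aunip among them was not separable, since its 2 control libraries stood further apart than the means of these genes, while Fancm was above Eme1 in both control libraries. Further down the upper part of the list stood Fance at 5.35 (rank 9 of 37), Rbbp8 at 5.09 (rank 10) and Rad51c at 2.67 CPM per kb (rank 14). Near the bottom were Atr at 0.443, a low value per length for a gene model of 23629 exonic bases, and Fancg at 0.0730, the lowest. The summed CPM of the 37 members was 706 and 776 in the control libraries and between 676 and 731 for Nr5a2 KD. It was between 791 and 867 for Klf5 KD and between 705 and 737 for dKD. The sum was thus similar in control, Nr5a2 KD and dKD, whose ranges overlap, and stood above both control libraries in each Klf5 KD library. A few high genes weigh most in it. In control and Klf5 KD, Brca2 was at 94.3 and 140.8 CPM and Fancl at 30.1 and 46.2. Against control in Klf5 KD, 22 of the 34 members tested had positive values and 12 negative ones.

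**Figure D1:**
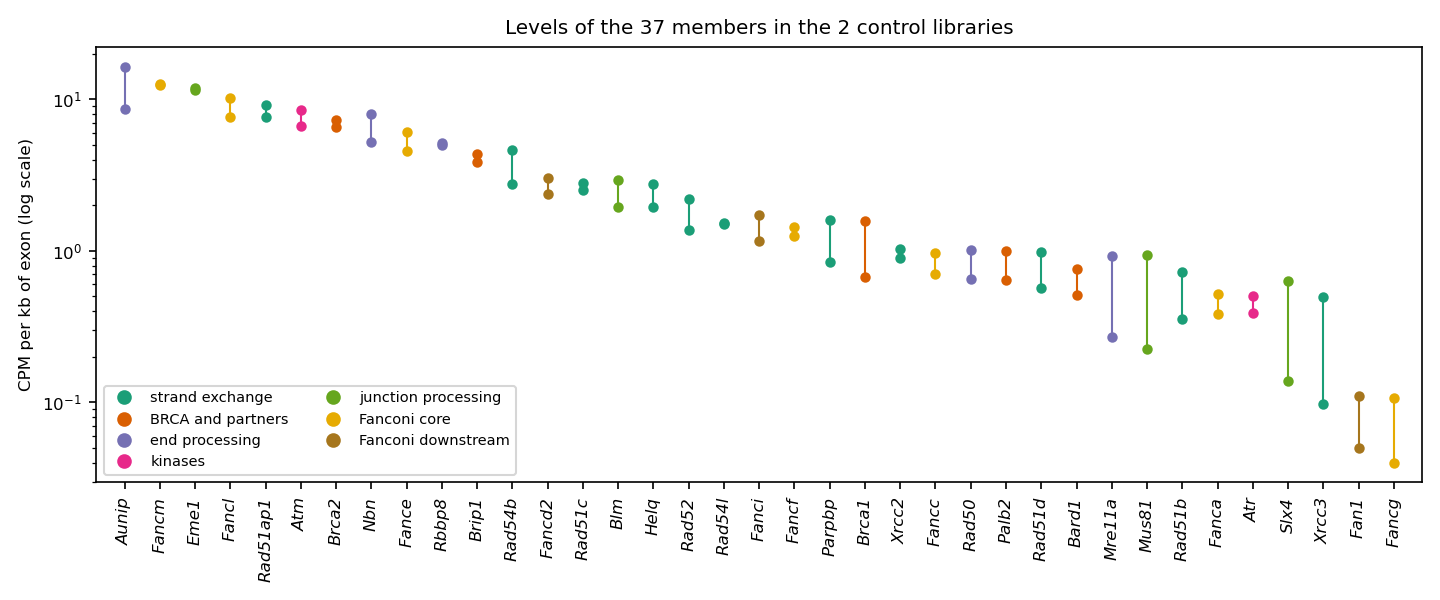
Level of each of the 37 members in the 2 control libraries, in CPM per kb of exon on a log axis, ordered by the mean and coloured by role, with a line joining the 2 libraries. Levels run from 12.5 CPM per kb for Aunip and Fancm to 0.0730 for Fancg, and genes of each role are spread along the order.

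In Nr5a2 KD 3 members were called lower, Fance, Rad51c and Rbbp8, and 2 were called higher, Atr and Rad54l. Fance, a subunit of the Fanconi core complex that contacts FANCD2, was at 16.6% of control, Rad51c at 24.9% and Rbbp8 at 46.2%, while Atr was at 262% and Rad54l at 213%. By edgeR the same 3 genes were called lower and the same 2 called higher in dKD against control, and no member was called in dKD that was not called in Nr5a2 KD. That depended on the fit. DESeq2 also called Aunip lower in dKD (log2 fold change -1.20, adjusted p = 0.0444) and not in Nr5a2 KD (-1.22, adjusted p = 0.0696), though its fold was about the same in both. With the replicate number as a block in edgeR, Aunip was called lower in both, Rad51c (adjusted p = 0.0538), Atr (0.0511) and Rad54l (0.0595) lost their calls in Nr5a2 KD, and dKD had 4 members lower and 3 higher, the added ones being Aunip and Bard1. The direct comparison of dKD with Nr5a2 KD, given further on, tests these differences. These comparisons share the 2 control libraries, so they are not independent of each other.

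In Nr5a2 KD the 3 members called lower were 8.82% of the 34 tested, where 4.42% of all 13262 genes were called lower. The 2 called higher were 5.88%, against 3.45% of all genes. At an unadjusted p under 0.05 there were 11 members (32.4%), against 24.1% of all genes. In dKD the shares were again 8.82% lower and 5.88% higher, beside 3.85% and 3.38% of all 13724 genes, and 10 members (29.4%) had an unadjusted p under 0.05, beside 25% of all genes. The median log2 fold change of the members was 0.129 in Nr5a2 KD, with 0.0439 over all genes, and 0.153 in dKD, with 0.0547 over all genes. The members thus moved in both directions around a median near that of all genes, with 20 positive and 14 negative values in Nr5a2 KD and 19 and 15 in dKD. The list was chosen with earlier results of these data known. It holds Rad51c, which the study names as lowered in dKD, so the shares called are not independent of that choice.

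Fance lies on chromosome 17 from 28313519 to 28326572. Its level was 19.6 and 14.6 CPM in control, 2.71, 3.31 and 2.51 in Nr5a2 KD, 12.1, 14.2 and 15.1 in Klf5 KD, and 4.80, 4.11, 2.36 and 1.18 in dKD. All 7 libraries that received Nr5a2 siRNA were below all 5 that did not, the nearest pair being 4.80 and 12.1 CPM. Against control, Nr5a2 KD gave a log2 fold change of -2.55 (95% interval -3.35 to -1.76, adjusted p = 0.00183 by edgeR) and dKD one of -2.42 (-3.42 to -1.43, adjusted p = 0.00905 by edgeR). In Klf5 KD it was -0.30 with an interval that reached 0.40 (adjusted p = 0.827 by edgeR), a value that turned to 0.33 when libraries were scaled by their ERCC spike-in counts. Of its exonic bases, 3.26% are shared with the overlapping gene CT025652.1, and a read pair there was split between the genes.

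Rad51c, which acts in strand exchange and is also a Fanconi gene, lies on chromosome 11 from 87376645 to 87404954 on the minus strand. It was at 11.1 and 12.3 CPM in control, 4.60, 2.76 and 1.38 in Nr5a2 KD, 9.62, 12.9 and 10.4 in Klf5 KD, and 3.79, 0.425, 1.89 and 2.83 in dKD, where 0.425 CPM stands for 3 counts. Every library with Nr5a2 siRNA was again below every library without it, and Klf5 KD overlapped control. Rad51c changed by a log2 value of -1.98 in Nr5a2 KD (-3.02 to -0.94, adjusted p = 0.0238 by edgeR), -2.33 in dKD (-3.55 to -1.11, adjusted p = 0.0255 by edgeR) and -0.09 in Klf5 KD (-0.83 to 0.65, adjusted p = 0.962 by edgeR). Rad51b, Rad51d and Xrcc2, whose products form complexes with that of Rad51c, had log2 fold changes of 0.11, 0.23 and 0.01 in Nr5a2 KD and of -0.19, 0.36 and 0.19 in dKD, none of them called, and at their control levels of 2.04 to 5.03 CPM the upper bound of each 95% interval in Nr5a2 KD lay above 1 on the log2 scale.

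Rbbp8, which encodes the protein CtIP that starts the trimming of broken ends together with the MRE11 complex, lies on chromosome 18. Its level was 62.7 and 64.7 CPM in control, 21.9, 38.6 and 27.9 in Nr5a2 KD, 44.3, 79.4 and 68.1 in Klf5 KD, and 34.3, 28.1, 19.8 and 28.6 in dKD. The 7 libraries with Nr5a2 siRNA stood below the 5 others, with the nearest pair at 38.6 and 44.3. On the log2 scale Rbbp8 differed from control by -1.09 in Nr5a2 KD (-1.67 to -0.50, adjusted p = 0.0268 by edgeR), -1.17 in dKD (-1.69 to -0.64, adjusted p = 0.0133 by edgeR) and 0.00 in Klf5 KD (-0.64 to 0.65, adjusted p = 0.999 by edgeR).

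Atr encodes the kinase that senses single-stranded DNA at stalled replication forks, and lies on chromosome 9 from 95857597 to 95951781. Its level was 11.8 and 9.12 CPM in control, 18.6, 34.3 and 29.4 in Nr5a2 KD, 6.48, 8.03 and 12.0 in Klf5 KD, and 29.3, 28.6, 21.02 and 19.4 in dKD. Each library with Nr5a2 siRNA was above each library without it. Atr had a log2 fold change of 1.42 in Nr5a2 KD (0.68 to 2.16, adjusted p = 0.0228 by edgeR), 1.27 in dKD (0.62 to 1.92, adjusted p = 0.0238 by edgeR) and -0.25 in Klf5 KD (-1.08 to 0.58, adjusted p = 0.892 by edgeR). Atm, the sister kinase that senses breaks, had values of 0.11 in Nr5a2 KD and -0.26 in dKD and was not called.

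Rad54l encodes a motor protein that drives strand exchange, and lies on chromosome 4 from 116094264 to 116123690 on the minus strand. Its level was 11.8 and 11.5 CPM in control, 23.1, 22.0 and 29.6 in Nr5a2 KD, 9.54, 14.9 and 10.9 in Klf5 KD, and 20.1, 30.6, 27.2 and 30.7 in dKD. The 7 libraries with Nr5a2 siRNA were all above the 5 others, the nearest pair being 20.1 and 14.9. Its log2 fold change came to 1.12 in Nr5a2 KD (0.48 to 1.76, adjusted p = 0.0344 by edgeR), 1.26 in dKD (0.64 to 1.87, adjusted p = 0.0201 by edgeR) and 0.01 in Klf5 KD (-0.74 to 0.77, adjusted p = 0.999 by edgeR). Of the exonic bases of Rad54l, 15.4% are shared with Lrrc41, and the counting did not use strand. Its relative Rad54b was at -0.33 in Nr5a2 KD and -0.54 in dKD, not called in either.

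**Figure D2:**
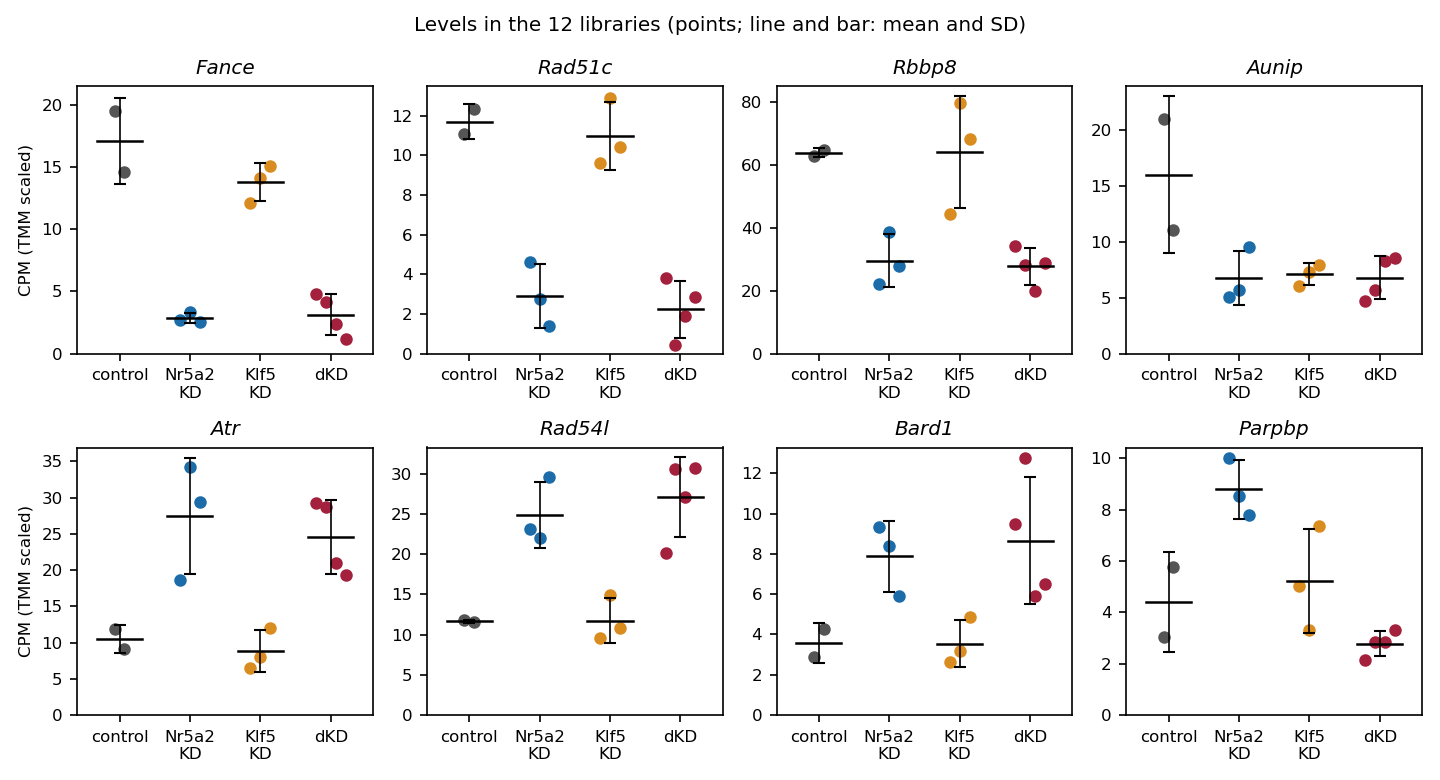
Level of 8 members in each of the 12 libraries, in CPM scaled with TMM factors on linear axes that start at 0. Points are libraries, and the line and bar give the mean and SD of the group (2 control, 3 Nr5a2 KD, 3 Klf5 KD and 4 dKD libraries). Fance, Rad51c and Rbbp8 are low and Atr, Rad54l and Bard1 high in all 7 libraries with Nr5a2 siRNA, Aunip is below control in every knockdown library, and Parpbp is high in Nr5a2 KD.

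With only 2 control libraries, these calls rested on both of them. Without control replicate 1 or without control replicate 2 no member was called in dKD against control, and in Nr5a2 KD only Fance was, the remaining control library being assumed to vary like the others. The 5 genes kept their direction and much of their size, Rad51c for example at -2.07 and -1.89 in Nr5a2 KD and -2.41 and -2.24 in dKD, with adjusted p from 0.0105 to 0.227 in Nr5a2 KD and from 0.0562 to 0.240 in dKD by edgeR. Leaving out a knockdown library cost the call of Atr (adjusted p = 0.0597) and Rad51c (0.0594) without Nr5a2 KD replicate 2, of Rbbp8 (0.0824) and Rad54l (0.0598) without Nr5a2 KD replicate 1, of Rad54l without Nr5a2 KD replicate 3 (log2 fold change 0.97, under the 2-fold minimum), of Rad51c without dKD replicate 3 (0.0513) and of Rad54l without dKD replicate 4 (0.052), all by edgeR. With a term for the mitochondrial share in the fit, which was tried only once the data had been seen, Rad51c (log2 fold change -1.44, adjusted p = 0.208), Rbbp8 (-0.93, 0.106) and Rad54l (0.85, 0.146) were not called in Nr5a2 KD by edgeR, while in dKD only Rad51c was not (-2.43, 0.0593), and Aunip (-1.63, 0.0324) and Bard1 (1.67, 0.0324) were called in addition. Rbbp8 in Nr5a2 KD was also lost when libraries were scaled by total counts (-0.97, 0.0602). With ERCC scaling neither Rad51c nor Rbbp8 was called in either group. Rad51c was at -1.31 in Nr5a2 KD (adjusted p = 0.13 by edgeR) and -1.5 in dKD (0.0915), and Rbbp8 shrank to -0.335 (0.619) and -0.385 (0.378). Without the libraries numbered 231 to 233, Rad51c was called in Nr5a2 KD (-2.46, adjusted p = 0.0218) and in dKD (-2.69, adjusted p = 0.0168) by edgeR.

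**Figure D3:**
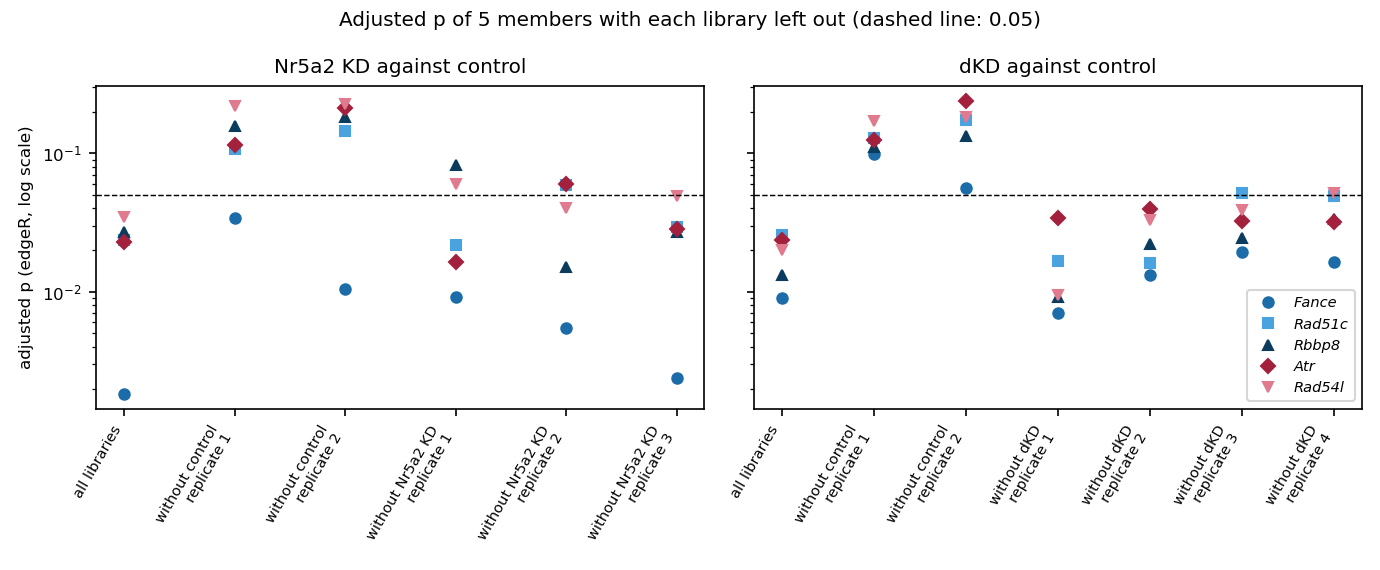
Adjusted p of Fance, Rad51c, Rbbp8, Atr and Rad54l from edgeR on a log axis, for the full set of libraries and after dropping 1 library at a time, in Nr5a2 KD and in dKD against control. Leaving out either control library moves all 5 genes above the dashed line at 0.05 in dKD, and all but Fance in Nr5a2 KD.

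The libraries with Nr5a2 siRNA did not overlap those without it for 7 members. Fancd2, Fance, Rad51c and Rbbp8 were lower, 4 of the 34 members tested, where 6.82% of 14830 genes showed this pattern. Atr, Bard1 and Rad54l were higher, 3 of 34, where 4.91% of genes did. Fancd2, the protein that the Fanconi core marks with ubiquitin, was at 24.1 and 18.9 CPM in control, 7.19, 11.8 and 13.1 in Nr5a2 KD, 21.1, 29.6 and 27.5 in Klf5 KD, and 15.7, 18.7, 7.21 and 17.9 in dKD. Its log2 fold change of -0.97 in Nr5a2 KD was not called (adjusted p = 0.0952 by edgeR), nor was that of -0.50 in dKD (adjusted p = 0.422 by edgeR).

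Bard1, the partner with which BRCA1 forms a ubiquitin ligase, was at 2.88 and 4.29 CPM in control, 9.32, 8.40 and 5.90 in Nr5a2 KD, 2.61, 3.19 and 4.84 in Klf5 KD, and 9.48, 12.8, 5.91 and 6.50 in dKD. Its log2 fold change was 1.15 in Nr5a2 KD (adjusted p = 0.131 by edgeR) and 1.29 in dKD (adjusted p = 0.0938 by edgeR), neither of which was called. It was called higher in dKD against Klf5 KD, where the log2 fold change was 1.31 (0.44 to 2.18, adjusted p = 0.0496 by edgeR). That call sat at the threshold and was lost in 5 of the 7 fits that left out 1 library. Brca1 itself had values of -0.52 in Nr5a2 KD and -0.24 in dKD, Brca2 of -0.22 and 0.15, and Palb2, which joins BRCA1 to BRCA2, of 1.00 and 1.23, none of them called. Palb2 was called higher in dKD in other edgeR fits, without the low-count filter (1.23, adjusted p = 0.0351), without dKD replicate 1 (1.41, adjusted p = 0.0467) and with ERCC scaling (2.09, adjusted p = 0.0306). It was at 0.614 with the mitochondrial term and at 0.691 with the replicate block, not called in either, and it was not called in any fit of Nr5a2 KD against control or of dKD against Nr5a2 KD.

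By role, the calls were spread over the list. Of 10 strand-exchange genes tested, 1 was lower and 1 higher in both comparisons, with a median log2 fold change of 0.0573 in Nr5a2 KD and 0.175 in dKD. None of the 5 genes of BRCA1, BRCA2 and their partners passed, with medians of 0.145 and 0.151. Of 5 end-processing genes 1 was lower, with medians of -0.53 and -0.0929, and Mre11a and Rad50, of the MRE11 complex, had positive values of 1.32 and 1.05 in Nr5a2 KD and of 1.27 and 1.05 in dKD that did not pass. The control libraries of Mre11a were at 5.46 and 1.61 CPM, and its value in dKD was 2.38 without control replicate 1 and 0.638 without control replicate 2. Of the kinases, Atr was higher and Atm was not called. The 4 genes that take joined molecules apart, Blm, Eme1, Mus81 and Slx4, had values from 0.25 to 0.30 in Nr5a2 KD and from 0.21 to 0.76 in dKD, and none passed. Of 6 Fanconi core genes tested 1 was lower, with medians of -0.266 and -0.0393, and of the downstream genes Fancd2 and Fanci neither passed.

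**Figure D4:**
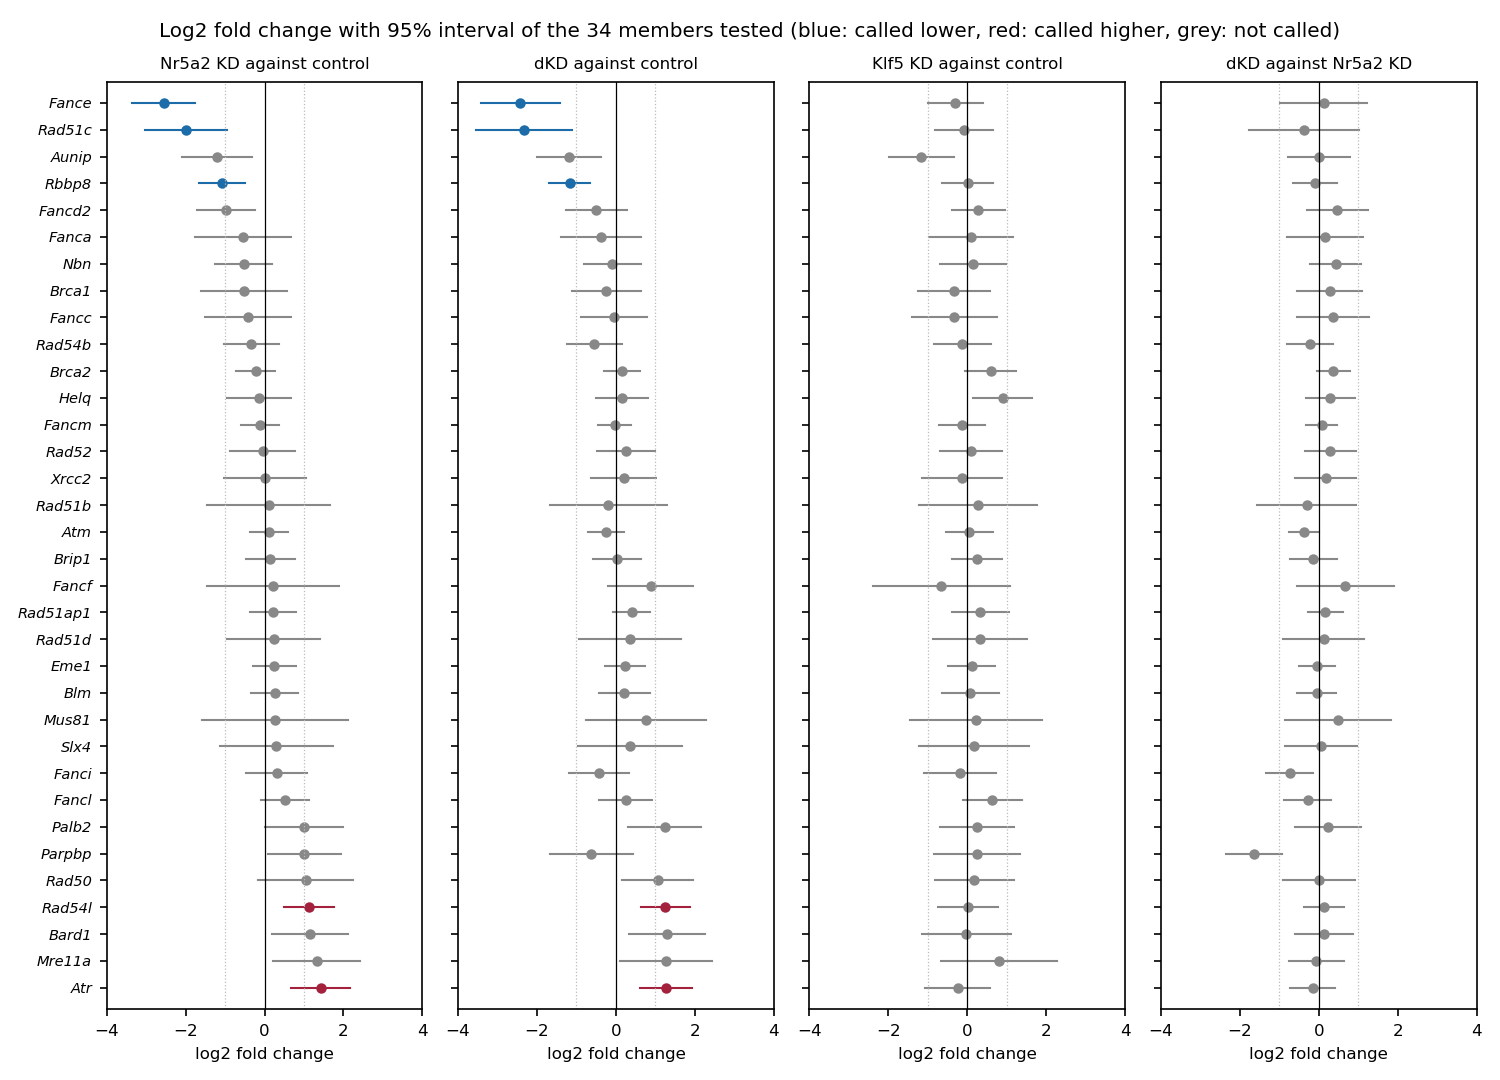
Log2 fold change with its 95% interval for the 34 members tested in 4 comparisons, ordered by the value in Nr5a2 KD against control, with dotted lines at -1 and 1. Blue marks members called lower and red those called higher. Fance, Rad51c and Rbbp8 are blue and Atr and Rad54l red in the panels of Nr5a2 KD and of dKD, and no member is coloured in the panels of Klf5 KD against control and of dKD against Nr5a2 KD.

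In Klf5 KD no member was called. By edgeR, 0% of the 12838 genes tested were called in this comparison, so the count of 0 members does not set them apart. The targeted gene Klf5 itself did not pass there (log2 fold change -2.03, adjusted p = 0.0996 by edgeR). With the replicate number as a block edgeR called 146 genes lower and 107 higher, again with 0 members. At an unadjusted p under 0.05 there were 2 members (5.88%), beside 8.47% of all genes, and DESeq2 called 0 members while calling 42 genes lower and 8 higher over the whole table. The median log2 fold change of the members was 0.0922, and 0.0046 over all genes. The lowest unadjusted p values belonged to Aunip and Fance in the negative direction and to Helq and Brca2 in the positive one.

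Aunip, on chromosome 4 from 134510999 to 134523927, stood at 20.9 and 11.0 CPM in control, 5.07, 5.65 and 9.55 in Nr5a2 KD, 6.03, 7.32 and 7.93 in Klf5 KD, and 4.68, 5.67, 8.27 and 8.50 in dKD. All 10 knockdown libraries were below both control libraries, which were themselves far apart, and the knockdown groups overlapped each other. Relative to control, its log2 fold change was -1.16 in Klf5 KD (adjusted p = 0.512 by edgeR), -1.20 in Nr5a2 KD (adjusted p = 0.0909 by edgeR) and -1.18 in dKD (adjusted p = 0.0731 by edgeR), and edgeR called it in none of these. It was called lower in dKD alone by DESeq2 and with the mitochondrial term (-1.63, adjusted p = 0.0324 by edgeR, beside -1.71 and 0.0698 in Nr5a2 KD). With the replicate block it was called in both dKD (-1.54, adjusted p = 0.0185 by edgeR) and Nr5a2 KD (-1.5, adjusted p = 0.0493 by edgeR), as it was without the low-count filter (adjusted p = 0.0288 and 0.0362 by edgeR). Without Nr5a2 KD replicate 3 it was called in Nr5a2 KD (-1.54, adjusted p = 0.0297 by edgeR). ERCC scaling shrank it to -0.355 in Nr5a2 KD and -0.369 in dKD. Leaving out control replicate 1 shrank it to -0.682 and -0.655, and none of these 4 values was called. It was 0.01 between dKD and Nr5a2 KD (-0.77 to 0.80), and -0.05 between dKD and Klf5 KD (-0.78 to 0.68).

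Helq, a helicase that acts at stalled forks, was at 14.1 and 9.93 CPM in control, 7.31, 11.2 and 13.4 in Nr5a2 KD, 20.3, 28.0 and 18.6 in Klf5 KD, and 11.1, 13.8, 14.8 and 12.3 in dKD. The Klf5 KD libraries were above all 9 others, with a log2 fold change of 0.90 against control (0.16 to 1.65, adjusted p = 0.551 by edgeR) and of -0.77 for dKD against Klf5 KD (adjusted p = 0.0743 by edgeR), neither of them called. Brca2, a mediator of strand exchange, was at 99.4 and 89.1 CPM in control, 75.0, 70.8 and 91.4 in Nr5a2 KD, 153, 169 and 100 in Klf5 KD, and 95.5, 94.2, 102.3 and 115 in dKD. Klf5 KD replicates 1 and 2 were the highest of the 12 libraries, and the log2 fold change of 0.59 was not called (-0.06 to 1.23, adjusted p = 0.605 by edgeR).

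Lowering Klf5 further on top of Nr5a2 was compared directly in dKD against Nr5a2 KD. Klf5 mRNA was at 12.3% of control in dKD and already at 30.6% in Nr5a2 KD. The comparison therefore covers only that further fall and not the loss of Klf5 from its control level. EdgeR called 0 of the 34 members and 0% of the 13017 genes tested, with 2 members at an unadjusted p under 0.05 (5.88%) and 3.43% of all genes. DESeq2 called 1 member, Parpbp, among 4 genes in all. For the genes called against control the differences were small relative to their intervals: 0.13 for Fance (-0.97 to 1.22), -0.37 for Rad51c (-1.76 to 1.02), -0.09 for Rbbp8 (-0.64 to 0.47), -0.16 for Atr (-0.72 to 0.41) and 0.12 for Rad54l (-0.38 to 0.63). For Rad51c and Fance the intervals reach a 2-fold further loss or nearly so, which these libraries could not detect or set aside, and the missed threshold does not show that the groups are alike. The median log2 fold change of the members was 0.0992, with 0.0123 over all genes.

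Parpbp, which encodes a helicase-like protein that restrains recombination, had the lowest unadjusted p of the members in this comparison, and lies on chromosome 10 from 88091432 to 88146941. Parpbp was at 3.03 and 5.77 CPM in control, 10.0, 8.54 and 7.79 in Nr5a2 KD, 5.04, 3.31 and 7.34 in Klf5 KD, and 2.15, 2.84, 2.83 and 3.31 in dKD. The Nr5a2 KD libraries were above all 9 others, and the dKD libraries lay at the level of the lower control library. The log2 fold change of dKD against Nr5a2 KD was -1.65 (-2.36 to -0.94), with an unadjusted p of 0.000276 that did not survive adjustment over all genes by edgeR (adjusted p = 0.999) and did by DESeq2 (-1.66, adjusted p = 0.0189). Against control its values were 1.01 in Nr5a2 KD (adjusted p = 0.169), 0.24 in Klf5 KD (adjusted p = 0.928) and -0.62 in dKD (adjusted p = 0.464), all by edgeR, and none was called. With 17 to 85 counts in a library, Parpbp is a weakly measured gene, and 12.1% of its exonic bases are shared with Pmch.

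By p in each direction, Fanci came next to Parpbp below 0, and Brca2 and Nbn came first above it. Atm, added after its values were seen, lay between Fanci and Brca2, with 57.4 to 70.8 CPM in dKD below 81.8 to 85.5 in Nr5a2 KD and a log2 fold change of -0.38 (-0.76 to 0.01, unadjusted p = 0.0529, adjusted p = 0.999 by edgeR). Fanci was at 10.0 and 6.71 CPM in control, 9.55, 10.6 and 10.2 in Nr5a2 KD, 4.50, 8.03 and 9.69 in Klf5 KD, and 6.57, 6.24, 6.38 and 4.96 in dKD, and the dKD libraries did not overlap those of Nr5a2 KD. Its log2 fold change of -0.74 had an unadjusted p of 0.0196 and was not called (adjusted p = 0.999 by edgeR). Nbn, of the MRE11 complex, was at 13.2 and 20.1 CPM in control, 9.08, 11.4 and 13.4 in Nr5a2 KD, 20.9, 22.9 and 11.0 in Klf5 KD, and 22.2, 13.6, 13.9 and 11.2 in dKD. Its groups overlapped, with a log2 fold change of 0.43 (-0.21 to 1.07), and that of Brca2 was 0.37 (-0.05 to 0.78).

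The interaction of the knockdowns, fitted over all 12 libraries, asks whether the change in dKD differs from the sum of the changes in the single knockdowns. Nr5a2 KD also lowered Klf5 mRNA, so the single knockdowns were not separate in what they lowered. By edgeR, 0 of the 34 members passed an adjusted p of 0.05, as did 0% of the 14830 genes tested, and DESeq2 passed 0 members and 3 genes. At an unadjusted p under 0.05 there were 2 members (5.88%), beside 4.82% of all genes: Parpbp at -1.89 (-3.11 to -0.67) and Aunip at 1.18 (0.07 to 2.29). The interaction was 0.43 for Fance (-0.80 to 1.67), an interval that holds an additive change and a 2-fold departure upward but not one downward. It was -0.28 for Rad51c (-1.86 to 1.30), an interval too wide to separate an additive change from a 2-fold departure in either direction.

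Set against Klf5 KD, where Nr5a2 mRNA was at 88.2% of control, dKD had lower Fance, Rad51c and Rbbp8 and higher Atr, Rad54l and Bard1. These were 3 of 34 members lower (8.82%) and 3 higher (8.82%), where 5.41% and 5.38% of all 12904 genes were called, and 11 members had an unadjusted p under 0.05 (32.4%), beside 26.6% of all genes. Of the cumulus and granulosa genes, Kitl, the only one tested here, was called higher in dKD (0.333 to 3.07 CPM, log2 fold change 3.34, adjusted p = 0.0267 by edgeR), and its part in these differences was not tested. This comparison uses no control library. Log2 fold changes were -2.14 for Fance (adjusted p = 0.00533), -2.27 for Rad51c (adjusted p = 0.00962), -1.20 for Rbbp8 (adjusted p = 0.0111), 1.49 for Atr (adjusted p = 0.00751) and 1.22 for Rad54l (adjusted p = 0.0126), all by edgeR. Fance, Rad51c, Atr and Rad54l kept their calls with each of the 7 libraries left out in turn, and Rbbp8 lost its own only without Klf5 KD replicate 2. With the replicate number as a block, Fance and Atr kept their calls and Rad51c (adjusted p = 0.0512), Rbbp8 (0.0945), Rad54l (0.0751) and Bard1 (0.147) lost theirs by edgeR, with log2 fold changes of -2.62, -1.21, 1.16 and 1.40. ERCC scaling ended the calls of Rbbp8 (log2 fold change -1.04, adjusted p = 0.108) and Rad54l (1.38, 0.0567), and total counts that of Rbbp8 (log2 fold change -0.99), by edgeR. The median log2 fold change of the members was 0.031, with 0.0245 over all genes.

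The list holds only part of the pathway, so 50 further recombination and Fanconi genes were read from the same fits. Of the 50 tested, 9 (18%) in Nr5a2 KD and 7 (14%) in dKD had an unadjusted p under 0.05, beside 24.1% and 25% of all genes. In Nr5a2 KD, 2 of the 50 were called lower and 1 higher, where 4.42% and 3.45% of all genes were, with a median of 0.0704. Faap20, which ties the Fanconi core to ubiquitin at the lesion, fell from 20.1 to 7.07 CPM (log2 fold change -1.47, adjusted p = 0.0127 by edgeR), Faap24, the partner of FANCM, from 37.2 to 17.4 (-1.07, adjusted p = 0.031 by edgeR), and Zswim7, which acts in recombination, rose from 4.87 to 14.9 (1.63, adjusted p = 0.0175 by edgeR). In dKD only Faap20 was called among them (5.30 CPM, -1.87, adjusted p = 0.0153 by edgeR), Faap24 being at -0.75 and Zswim7 at 1.12. In dKD against Klf5 KD, Faap20, Faap24 and Rmi2, of the complex that works with BLM, were lower. In Klf5 KD and in dKD against Nr5a2 KD none of 49 was called by edgeR, with 4 and 0 at an unadjusted p under 0.05.

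Other repair pathways were counted in the same way. Of 10 end-joining genes, Xrcc5 was called higher in Nr5a2 KD (1.94 to 8.88 CPM) and Polm in dKD (1.23 to 6.83 CPM), both from low levels. Of 16 base-excision genes tested in Nr5a2 KD and 15 in dKD, Parp1 was lower in both, from 63.2 CPM in control to 22.3 in each (-1.47 and -1.46, adjusted p = 0.00345 and 0.00409 by edgeR). Of 17 nucleotide-excision genes, Xpa was higher in both, with 19.0 CPM in control, 49.3 in Nr5a2 KD and 43.9 in dKD, and in dKD Gtf2h4 was also higher and Cetn2 lower. None of 7 mismatch-repair genes was called, with 1 at an unadjusted p under 0.05 in Nr5a2 KD and 2 in dKD. The study names 4 DNA repair genes from these samples as lowered specifically in dKD, by its own DESeq2 calls. That choice is not independent evidence of direction or of the contrast between dKD and Nr5a2 KD. All 4 had negative values and an unadjusted p under 0.05 in both Nr5a2 KD and dKD, with medians of -1.06 and -1.17. Rad51c was called lower in both, by edgeR and by DESeq2. Rnaseh2c was called in dKD (-1.15, adjusted p = 0.0269 by edgeR) and not in Nr5a2 KD (-0.92, adjusted p = 0.0718 by edgeR), with a difference between the groups of -0.24 (-0.86 to 0.37) that was not called. Pold1, a subunit of DNA polymerase delta, was called in neither (-0.86 with adjusted p = 0.117 in Nr5a2 KD, -1.07 with adjusted p = 0.061 in dKD, by edgeR), and its difference was -0.23 (-0.91 to 0.46).

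Genes of other processes were counted for the same comparisons. Of 13 replication-licensing genes, Pcna was higher in Nr5a2 KD (107 CPM, against 53.7 in control) and in dKD (117 CPM), and 7 (53.8%) had an unadjusted p under 0.05 in each, beside 24.1% and 25% of all genes, with medians of 0.618 and 0.582 where all genes had 0.0439 and 0.0547. Of 12 oocyte genes, with sums of 144 and 145 CPM in the control libraries and between 107 and 150 for Nr5a2 KD, 83.2 and 107 for Klf5 KD and 72.9 and 154 for dKD, Nlrp5 was lower in dKD, among 10 tested. Of 14 genes of the 2-cell stage, 8 of them tested in dKD, Zfp352 was higher in dKD (0.572 to 3.99 CPM). Of 12 targets of p53, Plk2 was higher and Trp53inp1 lower in both Nr5a2 KD and dKD, with 5 of 10 tested (50%) and 3 of 11 (27.3%) at an unadjusted p under 0.05. Of the 10 genes of the 8-cell embryo, Tead4 was called lower in Nr5a2 KD (98.2 to 47.9 CPM). Of the 8 tested, 6 had negative and 2 positive values in Nr5a2 KD and again in dKD. Dppa3 went from 15800 to 25400 CPM in Nr5a2 KD, not called. At an unadjusted p under 0.05 there were 5 of 8 (62.5%) in Nr5a2 KD and 4 of 8 (50%) in dKD. The part of stage, of dose and of mitochondrial share in the changes of the recombination and Fanconi genes was not tested, except for the covariate above.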

How the data were processed

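RNA-seq libraries of 10 pooled 8-cell embryos were analysed as deposited. Per the labels and the study's methods, the authors added ERCC spike-in RNA at lysis, made cDNA with a SMART-seq kit, trimmed read pairs with Trim Galore 0.6.2, mapped them with STAR to GRCm38 with H2B-EGFP and ERCC sequences added, and counted them over exons with featureCounts 2.0.1. What they deposited are estimated counts: a pair that overlapped several genes was divided among them, and nothing was scaled for library size. Strand was not used in the counting, amplification left no molecular identifiers, and the depth of 6676683 to 12560926 counts on genes sets the precision of low genes through counting error only.

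Values were rounded to whole counts. Groups came from the labels, and 55141 of 55401 genes were named from GENCODE M21, all 37 members at the same position as in the files. In R 4.3.3, edgeR 4.0.16 (filterByExpr at 10 counts with a total of 15, TMM, glmQLFit, glmQLFTest) compared the libraries of each pair of groups over all genes, and the interaction used all 12 libraries. P-values were adjusted by the Benjamini-Hochberg method over all genes tested, and a call needed an adjusted p under 0.05 and a 2-fold change. Nothing in the labels says that pools came from separate litters or days, so p-values measure the spread between these pools. The fits were tested on simulated data first. CPM used TMM factors over the 12 libraries. SDs are between libraries.

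The alternatives were DESeq2 1.42.0 on the same genes, scaling by its size factors, by total counts or by ERCC counts, dropping the filter, a joint fit of the 12 libraries, a replicate block, calls of any fold, unrounded values and dropping single libraries. A term for the mitochondrial share and a fit without the libraries numbered 231 to 233 were added after seeing the data. Same-numbered libraries of dKD and Nr5a2 KD deviated together from their group means (correlations 0.13, 0.221 and 0.254 over 14830 genes). Libraries of different numbers were not correlated, so that check cannot show that the numbers pair them. In the other comparisons same-numbered libraries did not deviate together.

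The members and gene lists were chosen with earlier results of these data known. Values in every library are given for members called or at an adjusted p under 0.05 in a pair of groups, for Rad51c and Aunip, which the study names, and for the 2 members with the lowest unadjusted p in each direction in the comparisons with control and in dKD against Nr5a2 KD. Fancd2 was added after its values were seen. The lists are further recombination and Fanconi genes (50 of 52 found), end joining, mismatch repair, base excision, nucleotide excision, repair genes the study names, replication licensing, oocyte, 2-cell, cumulus, 8-cell and p53 target genes. Promoters came from RefSeq (GRCm38.p6). Plots used matplotlib 3.10.9. The study's chromatin data were not analysed here.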

Additional observations from a re-analysis of the deposited data

Results flagged for a closer look

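Rad51b, a strand-exchange gene, stood apart in 1 dKD library. Replicate 1 was at 0.759 CPM, and the other dKD libraries were at 1.98, 2.01 and 2.13. On the log2 CPM scale with a prior count of 2, the gap to the nearest library was 0.929 of the range of the group, above the 95% critical value of Dixon's test for 4 libraries. Chance gives about 1 such library in 20 groups, and 37 members were looked at. Rad51b had 6 to 39 counts in a library and was not called in any comparison.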

How the results depend on the processing

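No member was called in Klf5 KD against control or passed the interaction in any alternative run. With ERCC scaling, which moved the median over all genes up to 0.816 in Nr5a2 KD, 0.656 in Klf5 KD and 0.842 in dKD against control, 1 member was called lower in Nr5a2 KD and 1 in dKD, 8 were called higher in dKD (23.5% of the members, beside 20.7% of all genes), and the medians of the members were 0.83 in Nr5a2 KD, 0.721 in Klf5 KD, 0.95 in dKD and 0.2 in dKD against Klf5 KD; Fance in Klf5 KD turned to 0.327. With total counts the medians were 0.233 in Nr5a2 KD, 0.299 in dKD and 0.253 in dKD against Klf5 KD. With a term for the mitochondrial share, added once the data had been seen, 1 member was lower and 1 higher in Nr5a2 KD, and the median in dKD was 0.0323. DESeq2 called 1 member lower in dKD against Nr5a2 KD. The cause of these shifts was not tested.

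With the replicate number as a block, Atr, Rad54l and Rad51c lost their calls in Nr5a2 KD against control, where 0 members were then higher and Aunip was among the 3 lower, 1 was lower and 1 higher in dKD against Klf5 KD, and the medians were 0.0458 in dKD against control and 0.0452 in dKD against Nr5a2 KD. In the last comparison, the one where same-numbered libraries deviated together, 0 members were called with or without the block. In dKD against Klf5 KD the same-numbered libraries correlated at -0.117, 0.0406 and -0.158, and with control at -0.0329 to 0.0473. The numbers were taken to pair the libraries in no main fit, although replicate 1 of each knockdown group also lies in the same stretch of header numbers. Without that stretch, an alternative added later, 1 member was higher in Nr5a2 KD, the median in dKD against Nr5a2 KD was 0.0237, Rbbp8 and Rad54l were not called in Nr5a2 KD and Bard1 was not in dKD against Klf5 KD.

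With each library left out in turn, members called lower ranged from 1 to 4 in Nr5a2 KD and from 0 to 3 in dKD against control, and members called higher from 0 to 1 and from 0 to 3. The median of the members ranged from -0.0437 to 0.196 in Nr5a2 KD, from 0.0721 to 0.128 in dKD, from 0.0193 to 0.1 in dKD against Nr5a2 KD and from -0.0681 to 0.0538 in dKD against Klf5 KD. The lowest counts in both comparisons with control came without either control library. Of the values of members in the comparisons for which the naming rule chose them, 330 kept their side of the threshold, 53 lost a call, 1 gained one (Parpbp) and 1 changed sign (Fance in Klf5 KD). Fancg, Fan1 and Xrcc3, at a few counts, passed the filter in none of the fits over all libraries of a comparison, and were not called in any fit that tested them.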
